A study of Mus musculus with 13 samples.

Results

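Neuropeptide precursor genes encode prohormones that neurons cut into short signalling peptides. The 10 genes described here are Nts, Grp, Tac1, Penk, Pdyn, Npy, Sst, Vip, Cck and Crh, taken by symbol from the 23003 symbols that both deposited tables share. Neuropeptides are released from dense core vesicles, act on receptors that mostly couple to G proteins, and are cleared by peptidases at the cell surface. In the forebrain Sst, Npy and Vip mark classes of inhibitory interneurons, Cck is made by interneurons and by pyramidal neurons, and Tac1, Penk and Pdyn are abundant in projection neurons of the striatum.

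RNA was sequenced in 13 mouse libraries. In tissue, 7 libraries came from hippocampus of the 3xTg strain, a model of Alzheimer disease in which the Thy1 promoter drives mutant human APP and tau in neurons, on a mutant presenilin gene. Of these, 3 samples had control adeno-associated virus of serotype 9 (AAV9) and 4 had AAV9 with Nurr1 (gene Nr4a2) plus Foxa2, the pair of transcription factors written N+F, and the labels list amyloid beta as the treatment of all 7. In culture, 6 libraries were labelled as glia of ICR pups at postnatal day 1. For each of hippocampus and cortex, a single library had control lentivirus and no amyloid beta (untreated), another had both control lentivirus and amyloid beta (amyloid beta control), and the last had both N+F lentivirus and amyloid beta. No age of the tissue animals, no wild-type tissue and no tissue without amyloid beta enters the comparisons, and nothing in the labels says that the tissue replicates were separate animals, so the p-values refer to spread among these samples only, part or all of which may be technical.

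Total counts per library ran from 10194437 to 25139406 in tissue and from 52189025 to 78273121 in culture. Levels are given as CPM, which divides counts by the total of their library, with edgeR's TMM factors in tissue and without them in culture, so levels are not compared between tissue and culture. The delivered genes were looked at first. In tissue Nr4a2 stood at 33.4, 19.4 and 45.1 CPM of the library total in the libraries labelled control 1 to 3 and at 26.6, 22.1, 22.5 and 34.2 in those labelled N+F 1 to 4, so it was not higher with N+F, and Foxa2 had 5, 1 and 1 counts against 26, 5, 1 and 6. The tissue groups are therefore named as labelled. In culture Nr4a2 was at 488 CPM with N+F against 3.35 in the amyloid beta control of hippocampal glia and at 36.9 against 5.14 in cortical glia, and Foxa2 had 0 counts in every culture library but the N+F ones. The untreated libraries labelled glia held 8570 (hippocampal) and 9258 (cortical) summed CPM of 10 neuron markers such as Snap25 and Rbfox3, against 389 to 476 in the other 4 culture libraries. The median of the 10 markers was 596 and 539 CPM untreated and 2.98 to 4.97 CPM in those 4. There Stmn2 alone was still at 162 to 235 CPM, while Snap25 was at 1.42 CPM or less. The word glia is therefore used below as the label of a culture library, and which of its cells made a transcript was not tested.

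Promoter sequence was read from RefSeq (GRCm38.p6) for 7 of the 10 genes, in 8 windows of 250 bases before the annotated start. Each window was searched on both strands for the cAMP response element TGACGTCA, its short core TGACG, the monomer element AAAGGTCA bound by the Nurr1 family, and the forkhead core TGTTTAC bound by proteins of the Foxa2 family. These sequences show the stretch before the Nts and Npy genes, whose values stand out below, and the cAMP element of Sst, with motif matches in capitals. Nts is chr10:102490487-102490668 on the minus strand, Npy is chr6:49822460-49822709 on the plus strand, and the Sst site is chr16:23890875-23890902 on the minus strand.
Nts: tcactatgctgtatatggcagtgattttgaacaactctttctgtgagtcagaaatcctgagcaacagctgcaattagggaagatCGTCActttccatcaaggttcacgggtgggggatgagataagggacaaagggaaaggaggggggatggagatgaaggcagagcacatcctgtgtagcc
Npy: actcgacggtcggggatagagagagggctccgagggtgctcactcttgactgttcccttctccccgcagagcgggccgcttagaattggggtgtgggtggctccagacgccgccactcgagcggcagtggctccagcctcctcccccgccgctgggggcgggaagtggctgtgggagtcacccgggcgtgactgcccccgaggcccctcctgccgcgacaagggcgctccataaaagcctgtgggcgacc
Sst: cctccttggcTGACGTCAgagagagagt
The full cAMP element was found in Sst alone of these 7 genes, 48 bases before the start, where it holds the short core on both strands, overlapping, and it occurs in 1.55% of 32851 RefSeq promoter windows. The short core was also found in Nts (166 bases before the start, printed as its reverse complement), Tac1 (197 and 43), Vip (79) and Cck (47), and in 17.8% of all windows. The monomer element was in no window of the 7 genes and in 1.34% of all windows. The forkhead core was in Cck, 35 bases before the start, and in 3.17% of all windows. A match is a description of the letters and not a measured binding site.

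The tissue comparison asked which transcripts differ in 3xTg hippocampus between N+F and control virus. Nts, the precursor of neurotensin, rose with N+F, and Grp, the precursor of gastrin-releasing peptide, fell. The other 8 precursor genes did not pass the test. Of the 10 genes, 8 had a higher estimate with N+F and 2 a lower one, with a median log2 fold change of 0.65, where the median over all 15523 genes tested was -0.00. All 10 passed the filter on low counts. In edgeR's quasi-likelihood test with Benjamini-Hochberg adjustment over all genes, 1 of the 10 was called higher against 0.00644% of all genes, and 1 was called lower against 0.103%. Every N+F library lay above every control for 5 of the 10 (Nts, Pdyn, Npy, Sst and Crh), against 3.92% of all genes, and below every control for 1 (Grp), against 4.19%. At an unadjusted p under 0.05 stood 7 of the 10, against 8.46% of all genes (1313), which is also the share to set beside the counts at that p given for the lists that follow. DESeq2, run as an alternative test, called 60 genes higher and 71 lower among 21423 entered. Those are the counts to set beside the DESeq2 calls given below. In bulk tissue, fewer cells of a type and less RNA per cell cannot be told apart.

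**Figure D1:**
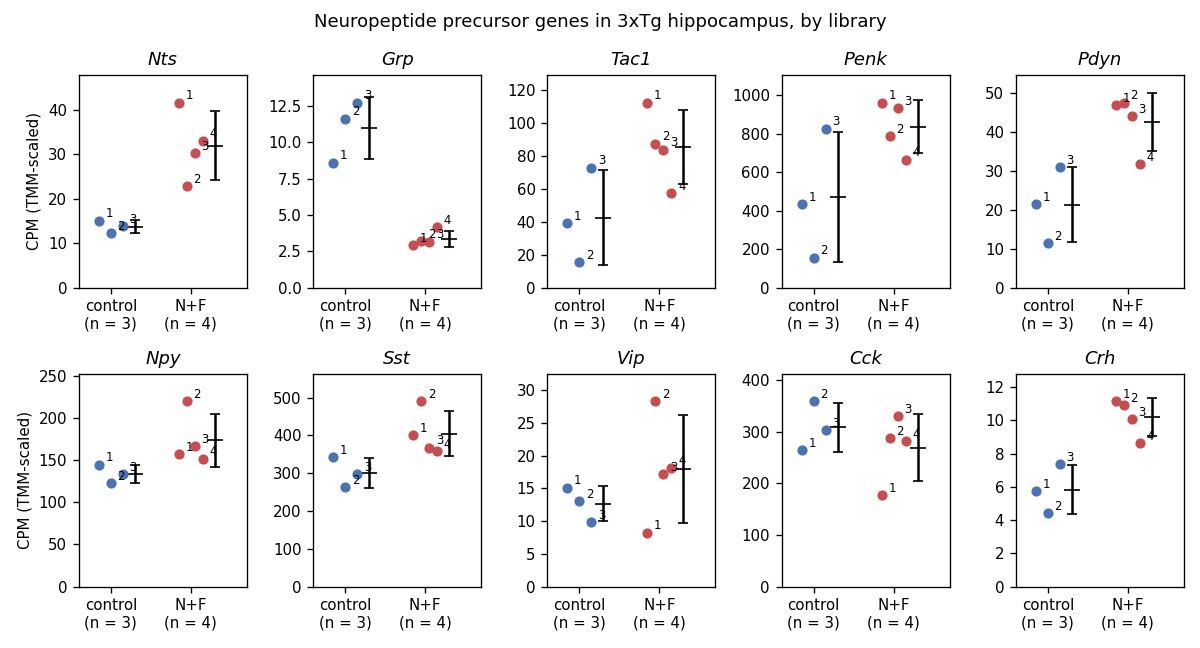
Each panel plots 1 precursor gene, with TMM-scaled CPM on a vertical axis from 0 and the tissue libraries as numbered points, 3 control and 4 N+F. The horizontal dash and bar beside each group are the mean and SD; Nts and Grp separate the groups, while Tac1, Penk, Vip and Cck overlap.

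Nts measured 15.1, 12.3 and 13.9 CPM in controls 1 to 3 and 41.7, 22.8, 30.2 and 33.1 CPM in N+F 1 to 4. The controls lay close together and all 4 N+F libraries were higher. The difference was 1.21 ± 0.20 (SE) on the log2 scale, with an adjusted p of 0.0481 in edgeR. Neurotensin is a peptide of limbic and hypothalamic neurons that modulates dopamine signalling and body temperature. The call did not survive leaving out any single library, with adjusted p from 0.0645 (without N+F 2) to 0.203 (without control 2) and log2 fold changes from 1.06 to 1.34.

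Grp measured 8.59, 11.6 and 12.7 CPM in controls and 2.91, 3.22, 3.16 and 4.16 CPM with N+F. The highest N+F library lay below the lowest control. Grp fell by 1.69 on the log2 scale (SE 0.23, edgeR adjusted p 0.0267). Gastrin-releasing peptide is a bombesin-like peptide made by subsets of excitatory neurons in hippocampus and cortex. Without control 1 the adjusted p was 0.00868, and without any other single library it ran from 0.0571 (without N+F 4) to 0.143 (without N+F 3), so the call was lost while the log2 fold change stayed between -1.86 and -1.58.

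Some pyramidal neuron markers fell as Grp did. Of 9 such markers 6 had lower estimates with N+F, and Fibcd1, Spink8 and Neurod6 passed the test. Summed, these markers reached 656, 948 and 854 CPM in controls and 501, 661, 884 and 661 CPM with N+F, so the groups overlapped. In contrast to Grp, Cck overlapped between groups. It measured 264, 359 and 303 CPM in controls and 177, 288, 330 and 282 CPM with N+F (log2 difference -0.20 ± 0.19, edgeR adjusted p 0.858). Cholecystokinin, its product, is an abundant cortical neuropeptide. The lowest Cck value was that of N+F 1, which also had the lowest sum of pyramidal markers. Summed mural and fibroblast markers were also lower with N+F, at 53.9, 322 and 308 CPM in controls and 25.9, 36.3, 31.0 and 52.9 CPM with N+F, and 10 general neuron markers overlapped, at 6237 to 6845 CPM in controls and 5483 to 7406 CPM with N+F. The part of pyramidal neuron, mural and fibroblast content in the Grp result was not tested.

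The 3 precursors typical of striatal projection neurons followed one another across libraries. Tac1, which encodes substance P, measured 39.2, 15.5 and 72.8 CPM in controls and 112, 87.4, 83.8 and 57.3 CPM with N+F. Penk, which encodes the enkephalins, measured 432, 155 and 826 CPM in controls and 961, 787, 931 and 665 CPM with N+F. Pdyn, which encodes the dynorphins, measured 21.5, 11.5 and 30.9 CPM in controls and 46.9, 47.6, 44.1 and 31.8 CPM with N+F. In all 3 genes control 2 was the lowest library and control 3 the highest control. Control 3 overlapped the N+F range for Tac1 and Penk and lay just under N+F 4 for Pdyn. The log2 differences were 1.00 ± 0.39 for Tac1 (edgeR adjusted p 0.479), 0.83 ± 0.40 for Penk (0.628) and 1.00 ± 0.27 for Pdyn (0.272). DESeq2 gave Pdyn an adjusted p of 0.0324. Controls 2 and 3 set much of these sizes. Without control 2 the differences were 0.61, 0.41 and 0.71, and without control 3 they were 1.62, 1.51 and 1.34.

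The summed level of 11 striatal projection neuron markers, among them Drd1, Drd2, Adora2a and Ppp1r1b, moved with these genes. It was 802, 383 and 1687 CPM in controls and 2068, 1818, 1852 and 1151 CPM with N+F, again lowest in control 2. All 11 markers had positive estimates with a median of 0.95. In edgeR 0 of them passed the test, 1 had an unadjusted p under 0.05 and DESeq2 called 1 (Rarb). Over the 7 tissue libraries, likeness was the root mean square difference of log2(CPM + 1) after each gene was centred, searched over 11613 genes other than the 10 precursors. Among those genes Tac1 was nearest to Rasgrp2 (0.134) and Gpr6 (0.162), Penk to Gpr6 (0.158), a gene of that marker list, and Ankrd63 (0.175), and Pdyn to Pcp4l1 (0.101). The part of striatal neuron content in the values of Tac1, Penk and Pdyn was not tested.

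**Figure D2:**
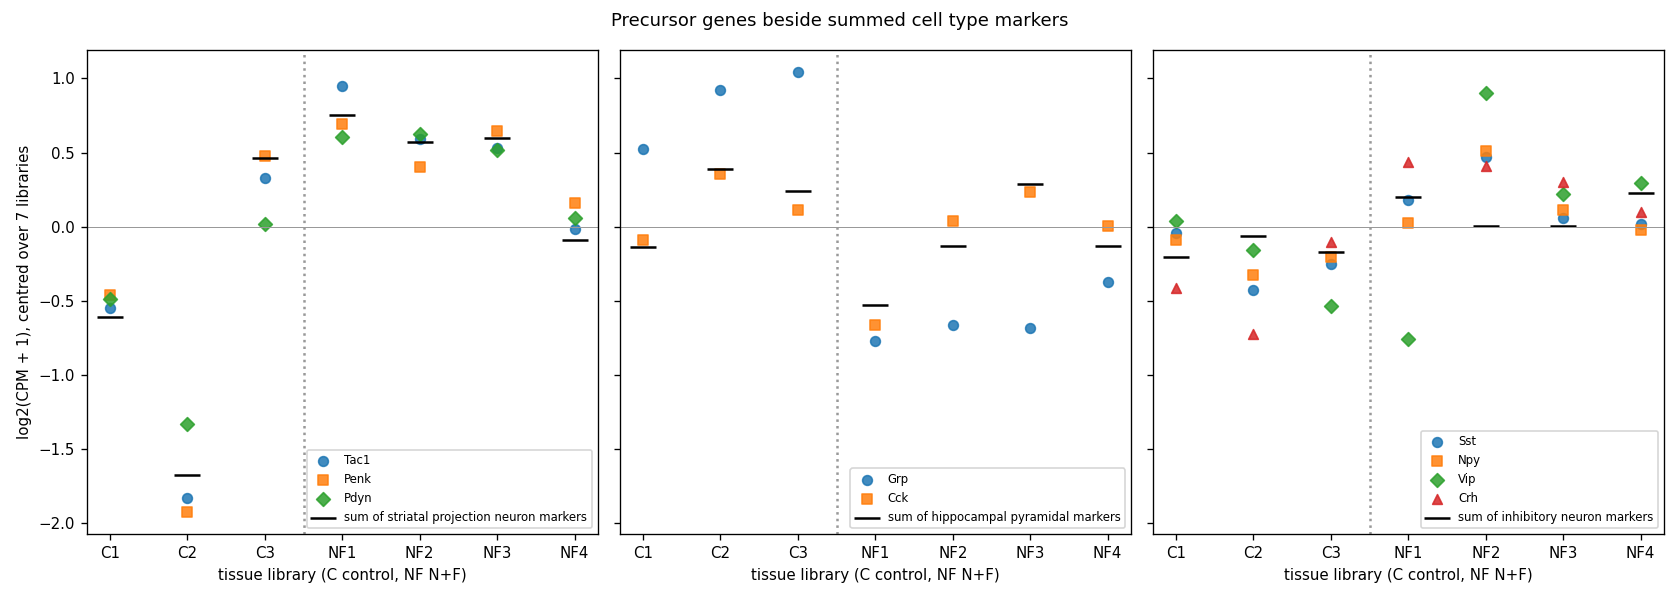
Points show log2(CPM + 1) of each gene, centred over the 7 tissue libraries, for controls (C) left and N+F (NF) right of the dotted line. Dashes show the summed markers of 1 cell type in each panel; Tac1, Penk and Pdyn share the low of control 2 with the striatal sum of 383 CPM.

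Sst, the precursor of somatostatin, measured 343, 264 and 297 CPM in controls and 400, 490, 368 and 358 CPM with N+F. Npy, the precursor of neuropeptide Y, which is often made by the same interneurons as somatostatin, measured 145, 123 and 134 CPM in controls and 157, 220, 167 and 152 CPM with N+F. Both genes had their lowest value in control 2 and their highest in N+F 2, and in both the groups did not overlap. The log2 differences were 0.42 ± 0.15 for Sst (edgeR adjusted p 0.440) and 0.38 ± 0.15 for Npy (0.491), so neither passed. Npy and Sst had the smallest root mean square difference of any pair among the 10 genes, 0.0781 against 0.161 for the next pair, Tac1 and Penk. This measure is not scaled to how much a gene varied. The SD over the 7 libraries was 0.267 for Npy and 0.288 for Sst, but 0.938 for Tac1 and 0.934 for Penk. Genes outside the 10 lay nearer still, Anapc16 to Npy (0.0456) and Mrps28 to Sst (0.0431).

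Vip, the precursor of vasoactive intestinal peptide, measured 15.1, 13.0 and 9.80 CPM in controls and 8.23, 28.3, 17.2 and 18.2 CPM with N+F. N+F 1 was the lowest of all libraries and N+F 2 the highest. The log2 difference was 0.50 ± 0.32 (edgeR adjusted p 0.745). Crh, the precursor of corticotropin-releasing hormone, which starts the stress hormone cascade and is also made by hippocampal interneurons, measured 5.73, 4.43 and 7.35 CPM in controls and 11.1, 10.9, 10.1 and 8.64 CPM with N+F. Its groups did not overlap, and the difference of 0.80 ± 0.22 on the log2 scale had an edgeR adjusted p of 0.273. Crh and Sst differed from each other by a root mean square of 0.236 in pattern.

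Inhibitory neuron markers stood at 526, 582 and 539 summed CPM in controls and 696, 609, 610 and 711 CPM with N+F, which do not overlap. Of 10 markers 8 had positive estimates, with a median of 0.31. Gad1, Gad2, Slc32a1 and Lhx6 were higher in every N+F library than in every control, 4 of 10 against 3.92% of all genes. Their log2 differences were 0.38, 0.43, 0.55 and 0.53. Pvalb and Dlx1 had negative estimates, each -0.30, and those of Adarb2 and Calb2 were 0.07 and 0.14. In edgeR 0 of the 10 passed the test, 4 had an unadjusted p under 0.05, and DESeq2 called 0. The part of inhibitory neuron content in the values of Sst, Npy, Vip and Crh was not tested.

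**Figure D3:**
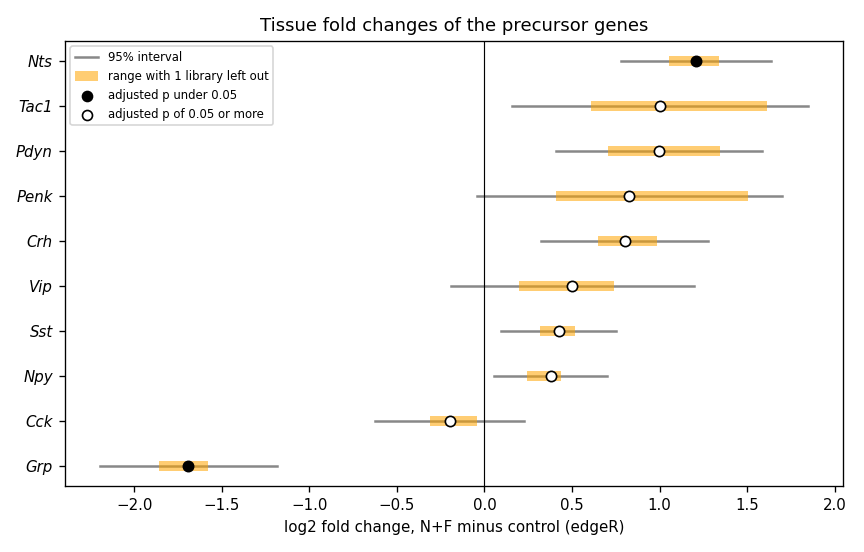
The horizontal axis is the edgeR log2 fold change of N+F minus control in tissue, with grey 95% intervals and orange bars for the range when 1 library is left out. Filled points, Nts at 1.21 and Grp at -1.69, have an adjusted p under 0.05; the widest orange bars belong to Penk and Tac1.

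Compared per kilobase of exon, with exon lengths from the GENCODE basic annotation, control tissue held most Sst, at 418 CPM per kb. Penk followed at 325, Cck at 265 and Npy at 237, then Tac1 at 34.6, Nts at 11.0, Pdyn at 8.93, Vip at 8.26, Grp at 8.01 and Crh at 4.42 CPM per kb. Penk ran from 107 to 570 CPM per kb across controls and so overlapped Sst, Cck and Npy. Cck (227 to 309) and Npy (218 to 256) overlapped each other, and Sst (365 to 475) lay above both. Pdyn and Vip overlapped each other and both Nts and Grp. Nts (9.84 to 12.1) lay below Tac1 (12.6 to 59.2) and above Grp (6.27 to 9.29), which lay above Crh (3.35 to 5.57). With N+F the lowest mean per kb was that of Grp, at 2.45, below Crh at 7.72, and the groups of these genes did not overlap there (2.13 to 3.04 against 6.54 to 8.44).

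The receptors of these peptides showed no common direction in tissue. Of 22 receptor genes tested 13 had positive and 9 negative estimates, with a median of 0.04. In edgeR 0 passed, 4 had an unadjusted p under 0.05, and DESeq2 called 1 (Sstr3, lower). Sstr3, a somatostatin receptor of neuronal primary cilia, was at 23.9, 25.7 and 27.0 CPM in controls and 12.8, 18.5, 16.9 and 14.3 CPM with N+F (log2 difference -0.71 ± 0.16, edgeR adjusted p 0.196). Npy2r, a presynaptic receptor for neuropeptide Y, was at 9.02, 11.4 and 10.9 CPM in controls and 6.13, 2.77, 5.53 and 6.08 CPM with N+F (-1.02 ± 0.26, adjusted p 0.255). Every N+F library lay below every control for 3 of the 22 receptors (Sstr3, Npy2r and Sort1), against 4.19% of all genes. For 1 (Sstr5) every N+F library lay above every control, against 3.92%. Sstr1, Sstr2, Npy1r and Npy5r overlapped between groups, with estimates of -0.24, 0.03, -0.06 and -0.06. Sort1, the sorting receptor that also binds neurotensin, was at 115 ± 1.65 CPM (SD, n = 3) against 85.5 ± 7.85 CPM (SD, n = 4), with an edgeR adjusted p of 0.273. Tacr1, the receptor of substance P, was at 131 ± 23.1 CPM in controls and 167 ± 16.4 CPM with N+F (edgeR adjusted p 0.523).

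Genes that cut, amidate and pack prohormones had mostly positive estimates without passing the test. Of 15 such genes 11 had positive and 4 negative estimates (median 0.16), 0 passed in edgeR or DESeq2, and 3 had an unadjusted p under 0.05. Scg2, a granin of dense core vesicles, was at 178, 139 and 176 CPM in controls and 258, 225, 196 and 257 CPM with N+F, with an edgeR adjusted p of 0.289. Pcsk1n, an inhibitor of the convertase that cuts prohormones, was at 893 ± 124 CPM against 1121 ± 77.9 CPM (edgeR adjusted p 0.574). Both were higher in every N+F library than in every control. Vgf, a secreted granin-like protein, was at 80.0 and 99.1 CPM on average, and Scg3, another granin, at 295 and 259 CPM. Of 11 peptidases that clear neuropeptides, 7 had positive and 4 negative estimates with a median of 0.10. There, 0 passed in edgeR or DESeq2 and 0 had an unadjusted p under 0.05. The smallest p-values were those of Nln, Ece2, Thop1 and Ece1, with edgeR adjusted p between 0.723 and 0.836.

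Other precursor genes also had mostly positive estimates. Of 17 tested, 15 had positive and 2 negative estimates, with a median of 0.37. In edgeR 0 passed, 6 had an unadjusted p under 0.05, and DESeq2 called 1 (Avp, higher). Avp, the vasopressin precursor, was at 16.2, 16.5 and 10.6 CPM in controls and 55.6, 76.9, 27.8 and 40.2 CPM with N+F. The groups did not overlap, and the log2 difference was 1.79 ± 0.30 with an edgeR adjusted p of 0.0611. Oxt, the oxytocin precursor, was at 10.7, 35.6 and 7.19 CPM in controls and 70.0, 37.4, 57.6 and 59.1 CPM with N+F (1.67 ± 0.44, edgeR adjusted p 0.267). Trh, the precursor of thyrotropin-releasing hormone, averaged 11.1 CPM in controls and 22.3 CPM with N+F (edgeR adjusted p 0.316), and Prok2, a secreted prokineticin, 0.936 and 2.42 CPM (0.449).

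Vasopressin, oxytocin and thyrotropin-releasing hormone are made mainly in the hypothalamus, so a list of 14 hypothalamic genes was added after these values were seen. Of these 8 passed the count filter, and the regulators Otp, Fezf1, Nr5a1, Six6 and Rax and the peptide gene Agrp did not. Of the 8, which include Avp and Oxt, 7 had positive estimates, with a median of 0.54. Pmch had the negative estimate (-0.25), and those of Hcrt and Sim1 were 0.06 and 0.02. In edgeR 0 passed, 4 had an unadjusted p under 0.05, and DESeq2 called 1 (Avp). Summed, these genes reached 1243, 1933 and 1312 CPM in controls and 2014, 2268, 2513 and 1939 CPM with N+F, of which Nkx2-1 alone made up 1057 to 2341 CPM, a level so high for hippocampus that reads of another locus may be counted under this symbol. The median of the 8 genes was 16.9, 12.2 and 8.89 CPM in controls and 36.6, 19.9, 30.03 and 25.4 CPM with N+F. Nts was nearest in pattern to Irs4 (root mean square difference 0.211), Peg10 (0.241) and Ecel1 (0.251), and Grp to Cabp7 (0.172), the collagen gene Col12a1 (0.180) and Neurod6 (0.207). The part of hypothalamic tissue in the Nts result was not tested.

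In culture each group was 1 library, so no test was made, and a gene counts as changed at a 2-fold or larger difference of CPM + 1 with at least 1 CPM in a library of the pair. Printed folds are ratios of CPM. Intervals are 95% counting intervals, which like the limits that a count of 0 allows cover counting error only. All 10 precursor genes were counted in both untreated libraries. Per kilobase, the untreated hippocampal library held most Sst, at 234 CPM per kb, then Cck at 214 and Npy at 73.8. The untreated cortical library held most Cck, at 235 CPM per kb, then Sst at 209 and Npy at 114. The lowest in the untreated hippocampal library were Nts at 3.15, Pdyn at 2.91 and Crh at 1.33 CPM per kb.

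The untreated hippocampal and cortical libraries differed for 4 of the 10 genes. Nts was 3.02-fold higher in the hippocampal library (2.31 to 4.00), 1 of 10 against 3.17% of all genes. Pdyn, Vip and Crh were 3.08-fold (2.76 to 3.44), 3.28-fold (3.07 to 3.50) and 5.80-fold (4.75 to 7.14) lower there, 3 of 10 against 2.30% of all genes. The abundant Cck and Sst each differed by at most 1.12-fold between the regions.

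All 10 precursor genes were far lower in the amyloid beta control than in the untreated library, in hippocampal and in cortical glia. By the same rule 25.6% of all genes in hippocampal and 25.4% in cortical glia were lower, and 21.0% and 19.8% were higher, where 0 precursor genes were. In hippocampal glia 9 of the 10 and in cortical glia all 10 reached 1 CPM in the untreated library alone, so passing the filter fixed their direction and nothing is read from these shares. Sst went from 169 CPM to 0 counts in hippocampal glia and from 151 CPM to 0 counts in cortical glia, at least 4197-fold and 3055-fold lower when set against 3 counts. Cck went from 248 to 0.268 CPM and from 273 to 0.247 CPM, which is 927-fold (600 to 1518) and 1104-fold (669 to 1974) lower. Vip and Grp, at 18.6 and 17.1 CPM in the untreated hippocampal library and at 61.0 and 11.4 CPM in the untreated cortical one, had 0 counts in both amyloid beta controls. Nts, at 3.94 and 1.30 CPM untreated, also had 0 counts in both.

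Penk in hippocampal glia went from 21.9 to 2.33 CPM, or 9.40-fold lower (8.03 to 11.1), and in cortical glia from 41.0 to 0.527 CPM. Npy went from 41.7 to 0.616 CPM and from 64.7 to 0.329 CPM. Tac1 (7.12 and 11.4 CPM untreated), Pdyn (6.94 and 21.4) and Crh (1.76 and 10.2) all ended at 0.395 CPM or less. Summed neuron markers went from 8570 to 446 CPM and from 9258 to 389 CPM between the same libraries. Summed inhibitory neuron markers went from 751 to 70.1 CPM and from 790 to 51.4 CPM. Oligodendrocyte, endothelial and microglia markers were lower too. In hippocampal glia the oligodendrocyte sum went from 9160 to 299 CPM, the endothelial sum from 142 to 9.25 and the microglia sum from 472 to 81.3. In cortical glia these sums went from 7708 to 173 CPM, from 150 to 6.93 and from 490 to 118. The part of cell content in these differences was not tested.

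**Figure D4:**
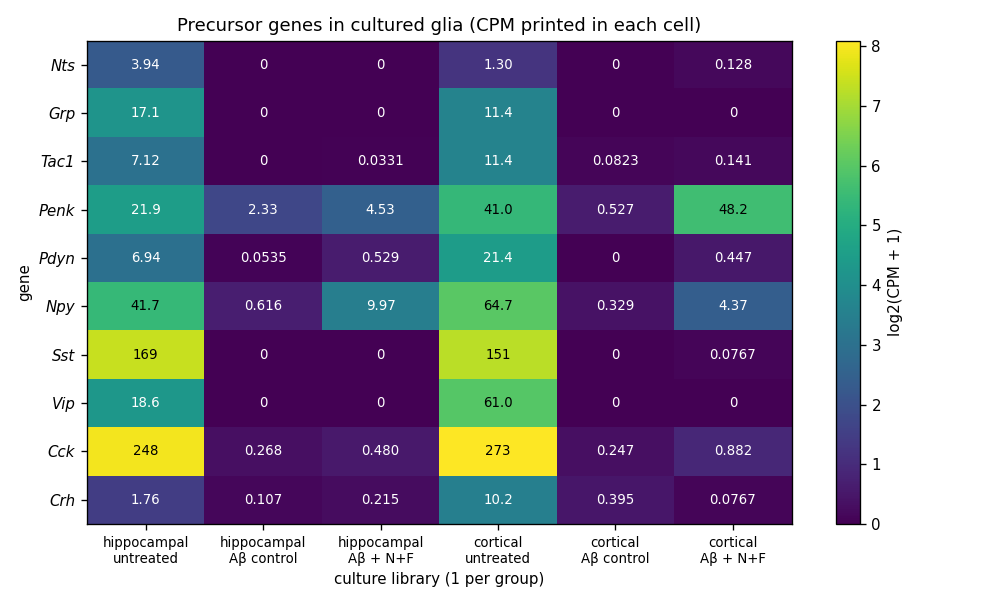
Rows are the 10 precursor genes and columns the 6 culture libraries, coloured by log2(CPM + 1) with the CPM printed in each cell. The untreated columns hold counts of every gene, and among the amyloid beta columns only Penk and Npy reach 1 CPM.

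With N+F, Npy was higher in both regions and Penk in cortical glia, while the other precursor genes stayed under 1 CPM in all 4 amyloid beta libraries. In hippocampal glia 2 of the 10 genes reached 1 CPM in the pair. There, 1 (Npy) was higher, where 5.60% of all genes were, and 0 were lower, where 0.767% were. In cortical glia 2 reached 1 CPM. Both (Penk and Npy) were higher, where 12.9% of all genes were, and 0 were lower, where 15.1% were. Npy in both regions and Penk in cortical glia reached 1 CPM in the N+F library alone, so passing the filter fixed their direction and nothing is read from these shares. Scaling by library total put the median of all genes at 0.12 on the log2 scale in hippocampal and -0.16 in cortical glia, and with TMM scaling these medians were -0.00 and 0.02.

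Npy had 46 counts in the hippocampal amyloid beta control and 603 with N+F, or 0.616 and 9.97 CPM, a 16.2-fold difference (11.99 to 22.4). In cortical glia it had 20 and 342 counts, or 0.329 and 4.37 CPM, a 13.3-fold difference (8.46 to 22.0). Both N+F libraries still lay below the untreated ones, 4.19-fold in hippocampal and 14.8-fold in cortical glia. Summed neuron markers were at 446 and 454 CPM in the hippocampal and 389 and 476 CPM in the cortical pair. Their medians were 3.31 and 4.97 CPM in the hippocampal and 4.85 and 2.98 CPM in the cortical pair. Single markers went both ways in cortical glia (Eno2 at 35.7 and 127 CPM, Tubb3 at 73.5 and 12.2 CPM). Summed inhibitory neuron markers were at 70.1 and 70.1 CPM and at 51.4 and 62.9 CPM. Among them Lhx6, a regulator of Sst and Npy interneurons, was at 0.107 and 5.03 CPM in hippocampal and 0.0988 and 5.14 CPM in cortical glia. Within each of these pairs Lhx6 reached 1 CPM in the N+F library alone. In the untreated hippocampal and cortical libraries it was at 20.7 and 20.9 CPM. No other inhibitory marker passed the 2-fold rule in hippocampal glia. In cortical glia Pvalb was higher too (2.75 and 16.4 CPM), while Dlx1 (8.93 and 3.78 CPM) and Calb2 (2.29 and 0.153 CPM) were lower. The part of neuron content in the Npy values was not tested. Sst, the precursor nearest to Npy in tissue, had 0 counts in both hippocampal libraries and 0 and 6 counts in the cortical ones.

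Penk differed between the regions. In hippocampal glia it had 174 counts in the amyloid beta control and 274 with N+F, or 2.33 and 4.53 CPM, a 1.95-fold difference (1.60 to 2.37) that stayed under the 2-fold rule. In cortical glia it had 32 and 3771 counts, or 0.527 and 48.2 CPM, a 91.4-fold difference (64.6 to 134), and with N+F it was at 1.17-fold the untreated level (1.11 to 1.24). The culture table has 2 lines for Penk, and the difference lay in the second line, with 0 and 3751 counts, while the first had 32 and 20. With 1 library per group the difference between regions could not be tested.

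The cortical N+F library also stood apart in markers of other cells. Summed mural and fibroblast markers, 6 genes such as Col1a1, Dcn and Lum, were at 143 CPM in the cortical amyloid beta control and 8440 CPM with N+F, and at 325 and 331 CPM in the hippocampal pair. Col1a1 alone was at 47.0 and 2894 CPM in cortical glia. Oligodendrocyte markers were at 173 and 472 CPM in the cortical pair. Of 5 choroid plexus markers Aqp1 alone was at 0.626 and 405 CPM, while Kl, Folr1, Clic6 and Otx2 were at 0.639 CPM or less with N+F. Of 5 endothelial markers Cdh5 was at 0.181 and 49.9 CPM and Flt1 at 5.24 and 17.9 CPM, while Cldn5 had 0 counts in both and Pecam1 was at 0.823 and 0.562 CPM. The part of these cells in the cortical Penk value was not tested.

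**Figure D5:**
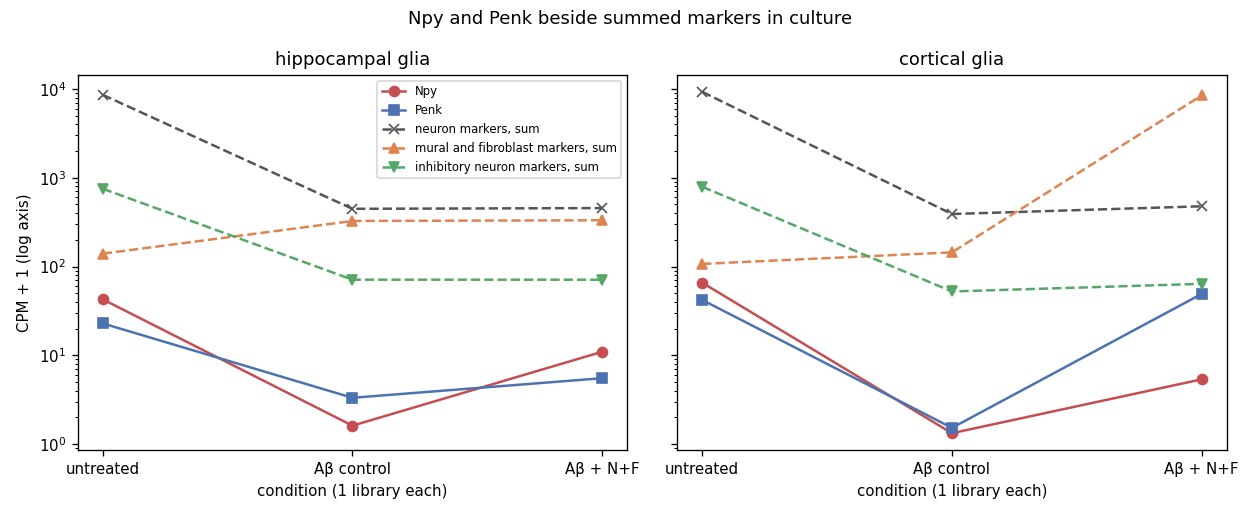
Lines join the 3 libraries of hippocampal (left) and cortical glia (right) on a log axis of CPM + 1, for Npy, Penk and the summed markers of 3 cell types. With N+F, Npy is at 9.97 CPM in hippocampal and 4.37 CPM in cortical glia, Penk is at 4.53 and 48.2 CPM, and the mural and fibroblast sum is at 331 and 8440 CPM.

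The other 8 genes had few counts with amyloid beta. Pdyn had 4 counts in the hippocampal control and 32 with N+F, a 9.89-fold difference (3.51 to 38.5), and 0 and 35 counts in cortical glia, at least 9.05-fold higher when set against 3 counts. Cck had 20 and 29 counts in hippocampal glia (1.79-fold, 0.979 to 3.34) and 15 and 69 in cortical glia (3.57-fold, 2.02 to 6.72). Crh had 8 and 13 counts in hippocampal glia (2.01-fold higher, 0.771 to 5.59) and 24 and 6 in cortical glia (5.16-fold lower, 2.05 to 15.4). These levels all lay below 1 CPM. Vip and Grp had 0 counts in all 4 amyloid beta libraries, which allows at most 0.0383 to 0.0496 CPM. Nts, the gene that rose in tissue, had 0 counts in 3 of the 4 and 10 counts in the cortical N+F library.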

How the data were processed

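RNA was extracted with Trizol and libraries were made with the SMARTER mRNA-Seq kit, per the labels' protocols. Both deposited tables give whole-number counts for each gene symbol, which the authors had not normalized. TopHat, HISAT2 and edgeR are named without version or role in the submitters' processing notes, which list human hg19 as the build for these mouse symbols and the build of the counts was treated as not established. The counting tool and the use of strand are not given in the sources used here, and predicted genes overlap Grp, Cck and Crh in RefSeq, so for these 3 genes reads of the partner cannot be told apart. Lines that repeat a symbol (44 in the tissue table, 12238 in the culture table) were summed, and 0 columns were unused. A read counted in several lines would be counted more than once.

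Tissue counts were filtered with filterByExpr, scaled by TMM (factors 0.895 to 1.11) and tested with edgeR 4.0.16 in R 4.3.3 (quasi-likelihood), with Benjamini-Hochberg adjustment over 15523 genes and a threshold of 0.05. The scripts were tested on simulated data. The replicate libraries of each tissue group were distinct beyond counting noise, with a chi-square of 15.0 to 56.1 per gene. Culture counts were divided by library totals to give CPM, the 2-fold rule was applied to CPM + 1, and printed folds are ratios of CPM with exact 95% intervals on the counts and a floor of 3 counts per library for a count of 0. Alternatives were DESeq2 1.42.0, its size factors, no filter, a replicate block, leaving out each library, the largest line per symbol, a pseudocount of 0.25 CPM and TMM in culture.

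All 10 precursors were named. Of the lists of receptors, processing genes, peptidases and other precursors, the genes past the test and otherwise at most 4 with the smallest p were named, and for pattern likeness at most the 3 nearest genes with a mean of at least 5 CPM. Inhibitory markers and genes called by DESeq2, and culture genes past the 2-fold rule, were named after their values were seen. So were further receptors of somatostatin and neuropeptide Y. The precursors and lists were chosen with earlier results of these data known. Promoter windows came from RefSeq (GRCm38.p6) and exon lengths from GENCODE basic (GRCm38). Only stretches outside the GENCODE gene body, or a site of 28 bases, are printed.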

Additional observations from a re-analysis of the deposited data

How the results depend on the processing

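In tissue no direction of the 10 precursor genes changed under any alternative, but the calls did. The count of genes past the test, 1 higher and 16 lower, became 60 and 71 with DESeq2 and 2 and 27 without the filter on low counts, while DESeq2's size factors and the largest line per symbol moved no count of calls by over 1.5 times. Leaving out 1 library gave 0 to 1 genes higher and 0 to 28 lower, and 0 to 1 of the precursor genes past the test in place of 2. The 28 were found without control 1. Without any one N+F library 0 genes passed in edgeR, with 1066 to 1544 at an unadjusted p under 0.05.

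A replicate block on libraries 1 to 3 of each group left 0 genes higher, 0 lower and 0 precursor genes past the test (1541 genes at an unadjusted p under 0.05), with Nts at 1.17 and Grp at -1.81 on the log2 scale, both with an edgeR adjusted p of 0.109. Deviations from the group mean correlated at -0.01, -0.10 and 0.15 between same-numbered libraries. Between differently numbered ones they ran from -0.22 (control 1 with N+F 3) to 0.14 (control 1 with N+F 2). These values cannot settle whether the numbers mark pairs or batches, and the block also drops N+F 4.

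In culture 223 of 280 recomputed log2 ratios stayed within counting error and 57 moved, none of them a called one that changed sign. Depth limits the culture values below 1 CPM, and 1 library per group limits all of them.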

Other observations

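In cultured glia with amyloid beta, some other precursor genes also differed between N+F and control. Their counts past the 2-fold rule are left out, since several reached 1 CPM in the N+F library alone. Nmb, which encodes neuromedin B, a relative of gastrin-releasing peptide, was at 1.54 and 20.4 CPM in hippocampal and 1.38 and 3.25 CPM in cortical glia, where it stayed under the rule. Gal, the galanin precursor, was at 0.321 and 4.42 CPM in hippocampal and 0.263 and 2.91 CPM in cortical glia. Rln3, the precursor of relaxin-3, was at 0.709 and 12.1 CPM in hippocampal glia and at 0 and 3.35 CPM in cortical glia, while both untreated libraries had 0. In the untreated hippocampal and cortical libraries Nmb was at 2.15 and 1.90 CPM and Gal at 0.340 and 0 CPM. With N+F, Nmb, Gal and Rln3 thus exceeded their untreated levels, which Npy did not.

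Tacr1, the substance P receptor, was at 11.6 and 51.1 CPM in hippocampal but at 9.44 and 7.15 CPM in cortical glia. Of 14 processing genes that reached 1 CPM, 1 was higher and 0 were lower with N+F in hippocampal glia, where 5.60% and 0.767% of all genes were. In cortical glia 2 were higher and 4 lower, where 12.9% and 15.1% were. Some of them, such as Pcsk1, reached 1 CPM in a single library of the pair. Passing the filter fixed their direction, so nothing is read from these shares. Pcsk1, a convertase that cuts prohormones, had 0 counts in the hippocampal amyloid beta control, was at 5.26 CPM with N+F there, and was at 0.0494 and 1.53 CPM in cortical glia. The granin Chgb was at 57.3 and 3.63 CPM and Chga at 8.37 and 0.907 CPM in cortical glia. Of the peptidases, 1 of 10 was higher and 0 were lower in hippocampal glia, and 4 of 11 were higher and 2 lower in cortical glia. Of those higher in cortical glia, Dpp4 reached 1 CPM in the N+F library alone, so nothing is read from these counts either. Ace, the angiotensin-converting enzyme, was at 7.47 and 110 CPM in hippocampal and 8.79 and 33.5 CPM in cortical glia, and Thop1, an oligopeptidase, was at 33.5 and 12.2 CPM in cortical glia. These pairs are single libraries, and no test of a difference between regions was possible.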
